A study of Mus musculus with 15 samples.

Results

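The genes of the mitochondrial ribosome were examined in CD4+CD25+ cells sorted from mouse spleen, the fraction that holds most regulatory T (Treg) cells. Every gene whose symbol in the platform's annotation is Mrpl or Mrps followed by a number was taken, through probe sets that carry a single symbol, with the brightest probe set standing for a gene that has several. This gave 77 genes (48 Mrpl and 29 Mrps) of 19938 genes with such a probe set, and all 77 passed the filter on dim genes, which kept 10964. Mrpl53 shares its only probe set with Ccdc142 and was left out. The 15 arrays hold cells of wild-type mice (WT 1 to 6), of Ikzf2-/- mice, of Ikzf4-/- mice and of mice lacking both genes (dKO), with 3 arrays for each mutant genotype. Ikzf2 encodes Helios and Ikzf4 encodes Eos, which are zinc finger factors related to Ikaros and present in Treg cells. The labels state no age, strain, sex or treatment, do not say how the alleles were made, and do not say whether each array is a separate mouse, so the spread between arrays may be partly technical. Each mutant was set against the WT arrays of its own run: WT 1 to 3 for Ikzf4-/- and dKO, and WT 4 to 6 for Ikzf2-/-.

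Mitochondria keep a ribosome of their own, with a large and a small subunit, which makes the few proteins that the mitochondrial genome encodes, all of them parts of the respiratory chain and ATP synthase. Its RNAs come from that genome, while every protein of it is made from nuclear genes, translated in the cytosol and imported. Some of these proteins descend from the bacterial ribosome and others occur only in mitochondria. T cells build up mitochondrial translation when they are activated and divide, and Treg cells rely on the respiratory chain. Of the 77 genes, 50 encode proteins of the large subunit and 26 of the small one. The names do not always tell the subunit: Mrps30 and Mrps18a sit in the large subunit, and Mrps36 is a component of the 2-oxoglutarate dehydrogenase complex and was counted in neither.

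Nuclear genes for mitochondrial proteins often start in GC-rich regions that hold sites for ETS factors, NRF1 or YY1, and many share a start region with a gene read the opposite way. RefSeq start regions (GRCm38.p6, 250 bases before to 50 bases after the start) were found for 68 of the 77 genes, in 74 windows. The 150 bases before the start are printed 5′ to 3′ for 4 genes that stood above every WT array in all Ikzf2-/- arrays, for Mrps18a, which stood lowest, and for Mrps11, which shares its start region with Mrpl46. Capitals mark a match on either strand to CCGGAAG (ETS), GCGC followed by any base and TGCGC (NRF1) or AAGATGGC (YY1). These 3 motifs do not contain each other, and a match is a string of letters, not a bound site. All 6 genes lie on the plus strand, Mrpl52 at chr14:54426759-54426908, Mrpl57 at chr14:57826089-57826238, Mrpl44 at chr1:79775868-79776017, Mrps26 at chr2:130563607-130563756, Mrps18a at chr17:46110854-46111003 and Mrps11 at chr7:78782981-78783130.
Mrpl52: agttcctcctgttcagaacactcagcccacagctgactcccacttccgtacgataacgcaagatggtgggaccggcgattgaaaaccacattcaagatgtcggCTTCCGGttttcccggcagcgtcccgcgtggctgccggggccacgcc
Mrpl57: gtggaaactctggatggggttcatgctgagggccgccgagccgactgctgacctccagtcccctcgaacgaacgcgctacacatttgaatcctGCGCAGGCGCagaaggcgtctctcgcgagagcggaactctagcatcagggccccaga
Mrpl44: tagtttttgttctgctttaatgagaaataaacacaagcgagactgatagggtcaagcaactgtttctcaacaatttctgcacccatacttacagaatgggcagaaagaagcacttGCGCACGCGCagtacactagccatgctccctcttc
Mrps26: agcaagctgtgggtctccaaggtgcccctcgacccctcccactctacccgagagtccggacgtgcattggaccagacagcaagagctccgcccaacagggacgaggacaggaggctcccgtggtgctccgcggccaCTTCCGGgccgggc
Mrps18a: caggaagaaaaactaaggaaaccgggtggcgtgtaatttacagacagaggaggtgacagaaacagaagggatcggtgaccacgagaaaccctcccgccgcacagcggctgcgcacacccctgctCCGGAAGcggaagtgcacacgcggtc
Mrps11: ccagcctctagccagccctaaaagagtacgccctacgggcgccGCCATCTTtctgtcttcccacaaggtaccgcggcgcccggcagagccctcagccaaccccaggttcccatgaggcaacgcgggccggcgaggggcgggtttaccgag
The ETS letters begin 47 bases before the start in Mrpl52, 14 in Mrps26 and 26 in Mrps18a. The NRF1 letters begin 57 bases before the start in Mrpl57 and 35 in Mrpl44, and the YY1 letters 107 bases before it in Mrps11. Mrps18a, the lowest gene, thus held the same ETS letters as Mrpl52, the gene of lowest p.

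Across the 74 windows, the ETS letters occurred in 25 (33.8%), against 11.6% of 21262 windows of all protein-coding genes and 18.3% of 10821 windows of tested genes. NRF1 letters occurred in 13 windows (17.6%, against 6.38% and 10.4%), and YY1 letters in 12 (16.2%, against 3.05% and 4.66%). A start of another protein-coding gene on the opposite strand within 1000 bases was found for 26 windows (35.1%, against 7.97% and 12.3%). The E-box CACGTG, which Myc family factors bind, stood in 7 windows (9.46%, against 7.84% and 10.2%). TGGGAA, a core bound by Ikaros family factors, stood in 20 windows (27%, against 24.5% and 22.8%). The shares of ETS, NRF1 and YY1 letters and of shared start regions were thus higher among these genes than among other tested genes, while the E-box and the Ikaros core stood near the share of all windows. Median GC content was 58.5%, against 60.7% in tested genes.

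The arrays set limits on what can be compared. On average, 2 arrays of the first 9 shared exactly equal values in 2286 probe sets, 2 arrays of the last 6 in 34.4, and 1 array of each in 0.0741, so both runs appear to have been normalized apart. The median member signal was 0.55 lower on the log2 scale in WT 4 to 6 than in WT 1 to 3, beside -0.38 over all genes. Past limma's adjusted threshold, 59 of 77 members were lower and 1 higher, beside 6423 of 10964 tested genes lower and 612 higher. Most tested genes thus differed between the WT sets, and levels were therefore compared within runs only. The deleted genes gave a mixed check of the labels, whose names are kept here. Ikzf2 read 10.06, 9.15 and 9.22 in Ikzf2-/- 1, 2 and 3 against 10.25, 10.38 and 10.38 in WT 4, 5 and 6, a difference that did not pass limma's test (-0.86, SE 0.20, adjusted p = 0.0880). In dKO 1, 2 and 3 it read 10.11, 10.16 and 10.59, against 10.46, 10.74 and 10.76 in WT 1, 2 and 3. The Ikzf4 probe set was not lower in Ikzf4-/- cells (8.22, 8.13 and 8.19 against 7.83, 8.07 and 8.02), which checks nothing if it lies outside the deleted part. Treg markers were bright in every array, with Foxp3 between 10.10 and 11.16.

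Mean log2 signals of the 77 genes ran from 4.95 to 9.78 with a median of 7.54, and 62 of them lay above the 75th percentile of all genes. Signals of different probe sets are not comparable as amounts of RNA, so this order only tells how far each gene stands above the array's floor. At the bright end were Mrpl30 (9.78), Mrps18c (9.71), Mrps21 (9.38) and Mrpl24 (9.36), all proteins with bacterial counterparts. The dim end held Mrps27 (4.95), Mrpl43 (5.76), Mrpl47 (5.98) and Mrpl45 (6.08), whose changes RMA compresses most. The genes lie on 17 chromosomes, with 11 on chromosome 11 and 8 on chromosome 17.

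Several mitochondrial ribosomal genes have processed copies elsewhere in the genome, and a probe set can read a copy. Of 85 member probe sets, 7 are numbered among probe sets of another chromosome's genes, 5 of which stand for their gene here: Mrpl27, Mrpl41, Mrpl48, Mrpl51 and Mrps33. For 4 of these 5, all but Mrpl41, RefSeq lists a pseudogene of the gene on that other chromosome. Mrpl51 differed by 0.49 between Ikzf2-/- and WT 4 to 6 in the probe set used and by 0.28 in the one among neighbours of its own chromosome. The corresponding values were 0.58 and 0.55 for Mrps33, 0.38 and 0.21 for Mrpl41, and -0.22 and -0.07 for Mrpl27. Mrpl48 had no second probe set, and its values may come from the copy in part.

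In cells lacking Helios, most mitochondrial ribosomal genes stood somewhat higher than in WT cells of the same run, by a median of 0.23 on the log2 scale, but no single gene passed the test over all genes. A positive difference was seen in 70 of 77 genes (90.9%, against 54.5% of all tested genes), and the median over all genes was 0.02, so the members stood 0.21 above it. With limma's test adjusted by Benjamini-Hochberg, 0 of 77 passed 0.05 in either direction, beside 0.0365% of all genes higher and 0.0274% lower. At an unadjusted p under 0.05, 30 members were higher (39%) and 0 lower, beside 10.9% and 5.45% of all genes. The fit shares its estimate of spread over 5 groups. The median SD of a member was 0.20 in Ikzf2-/- and 0.10 to 0.13 in the other groups, so SEs and p here may be too small. With only the groups compared fitted, 16 members were higher at that p (6.33% of all genes). All 3 Ikzf2-/- arrays lay above all 3 WT arrays in 26 members (33.8%, against 10.7% of all genes), and below them in 0 (against 5.5%). The 30 genes differed by 0.20 to 0.65 (1.15-fold to 1.57-fold), with adjusted p between 0.0649 and 0.305. Counted by subunit, they were 19 of 50 large subunit genes and 11 of 26 small subunit genes.

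The arrays of the mutant did not all contribute alike. The median member difference from the WT mean of the run was 0.16, 0.18 and 0.37 in Ikzf2-/- 1, 2 and 3, while the median over all genes was 0.04, -0.03 and 0.08. In WT 4, 5 and 6 the members stood at 0.06, 0.02 and -0.10, below each Ikzf2-/- array. Ikzf2-/- 3 exceeded all 3 WT arrays in 68 of 77 members (88.3%, against 46.2% of tested genes). For Ikzf2-/- 1 this held in 45 members (58.4%, against 36.6%) and for Ikzf2-/- 2 in 47 (61%, against 31.7%). Ikzf2-/- 2 also lay below all 3 WT arrays in 12 members (15.6%, against 40.1% of all tested genes). When the median signal of the 77 genes was set against that of all tested genes in the same array, groups overlapped: the distance was 0.59, 0.59 and 0.67 in WT 4, 5 and 6 and 0.62, 0.85 and 0.77 in Ikzf2-/- 1, 2 and 3.

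**Figure D1:**
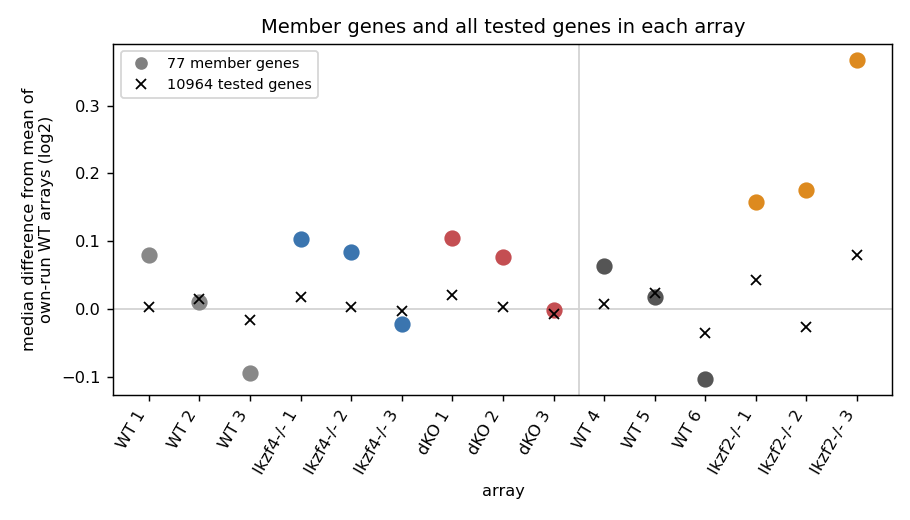
Median log2 difference of the 77 mitochondrial ribosomal genes (circles, coloured by group) and of all 10964 tested genes (crosses) from the mean of the WT arrays of the same run, for each array; the vertical line parts the runs. The 3 Ikzf2-/- arrays stood at 0.16, 0.18 and 0.37, above WT 4 to 6, while Ikzf4-/- and dKO arrays overlapped WT 1 to 3.

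**Figure D2:**
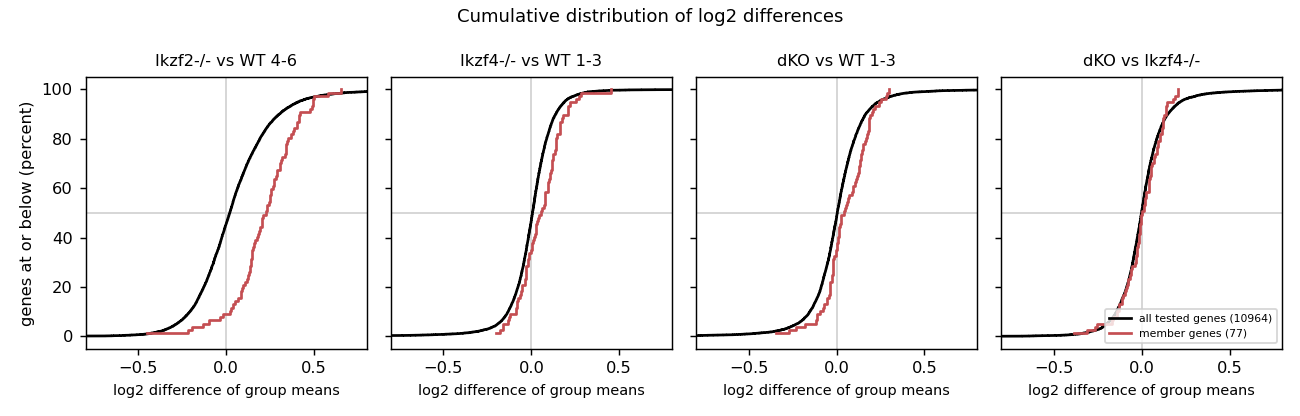
Cumulative share of genes (percent, vertical) at or below each log2 difference of group means (horizontal, shown from -0.8 to 0.8) for the 77 members (red) and all tested genes (black) in 4 comparisons. The red curve is shifted right for Ikzf2-/- against WT 4 to 6 (medians 0.23 and 0.02) and lies near the black one for dKO against Ikzf4-/- (both medians 0.00).

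Among large subunit proteins, those found only in mitochondria gave the lowest p-values. Mrpl52 read 8.97, 9.30 and 9.11 in Ikzf2-/- 1, 2 and 3 and 8.67, 8.67 and 8.55 in WT 4, 5 and 6. The groups did not overlap, and the difference was 0.49 (SE 0.09, 1.41-fold, limma adjusted p = 0.0649). Mrps30, a large subunit protein despite its name, was nearly constant in WT 4, 5 and 6 at 6.17, 6.14 and 6.14 and read 6.48, 6.73 and 6.66 in the mutant arrays. Its difference was 0.48 (SE 0.11, adjusted p = 0.0824). Mrpl57 read 7.26, 7.45 and 7.30 against 6.93, 7.06 and 6.81, a difference of 0.41 (SE 0.09, adjusted p = 0.0821). In these 3 genes every mutant array stood above every WT array.

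Mrpl44, a protein with an RNase III-like fold that is needed for assembly of the large subunit, read 6.43, 6.54 and 6.63 in Ikzf2-/- arrays and 6.27, 6.12 and 5.97 in WT 4, 5 and 6. It differed by 0.41 (SE 0.11, adjusted p = 0.107), again without overlap. Mrpl51 (0.49, adjusted p = 0.107) and Mrpl48 (0.34, adjusted p = 0.0967) were also higher in every mutant array, with the probe set limits given above. Mrpl41 differed by 0.38 (adjusted p = 0.205) and Mrpl45, which lies at the exit tunnel near the inner membrane, by 0.34 (adjusted p = 0.316). The proteins of the stalk that recruits translation factors differed among themselves: Mrpl12 by 0.31, Mrpl11 at its base by 0.24 and Mrpl10 by 0.02. Mrpl10 read 8.19, 7.65 and 8.48 in Ikzf2-/- 1, 2 and 3, a range that spans all WT arrays (8.19, 8.09 and 7.98). Mrpl37 differed by 0.04. The largest difference of any member was that of Mrpl22, which lines the exit tunnel and is named here after its values were seen. It read 5.19, 5.35 and 6.35 against 4.90, 5.10 and 4.94, so Ikzf2-/- 3 made much of its 0.65 (SE 0.21, adjusted p = 0.164).

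Small subunit genes gave a lower median difference (0.17) than large subunit genes (0.25), and the 28 mitochondria-specific proteins a higher one (0.28) than the 48 with bacterial counterparts (0.20). These differences between classes were not tested. Mrps33 (0.58, adjusted p = 0.111) and Mrps26 (0.40, adjusted p = 0.112), named after their values were seen, had the lowest p of the small subunit. Mrps26 read 7.35, 6.95 and 7.32 in Ikzf2-/- 1, 2 and 3 against 6.83, 6.95 and 6.63 in WT, with Ikzf2-/- 2 barely above WT 5. Mrps12, the decoding centre protein, differed by 0.50, and its arrays overlapped (7.74, 8.39 and 8.29 against 7.15, 7.70 and 8.07). Mrps7, which binds the head of the small subunit RNA, differed by 0.49 without overlap. The 3 paralogues related to bacterial S18 went different ways: Mrps18c differed by 0.41 without overlap, Mrps18b by -0.19 and Mrps18a by -0.45, the lowest value of all members.

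Several of the negative differences rested on a single array. Mrps18a read 7.43, 5.89 and 7.96 in Ikzf2-/- 1, 2 and 3 against 7.62, 7.55 and 7.46 in WT 4, 5 and 6, and without Ikzf2-/- 2 its difference was 0.15. Mrpl4 read 6.90, 6.17 and 7.43, with a difference of -0.13 that became 0.20 without Ikzf2-/- 2. Mrps5 (-0.10) became 0.02 without that array, and Mrps18b stayed at -0.01. Mrpl27 (-0.22) and Mrps10 (-0.04) overlapped WT as well, and none of these 6 genes had an unadjusted p under 0.05. Mrps11, whose start region is shared with Mrpl46, read 6.52, 5.65 and 7.03 in the mutant and differed by 0.14, while Mrpl46 differed by 0.27. Mrps36, the dehydrogenase component, differed by 0.17.

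**Figure D3:**
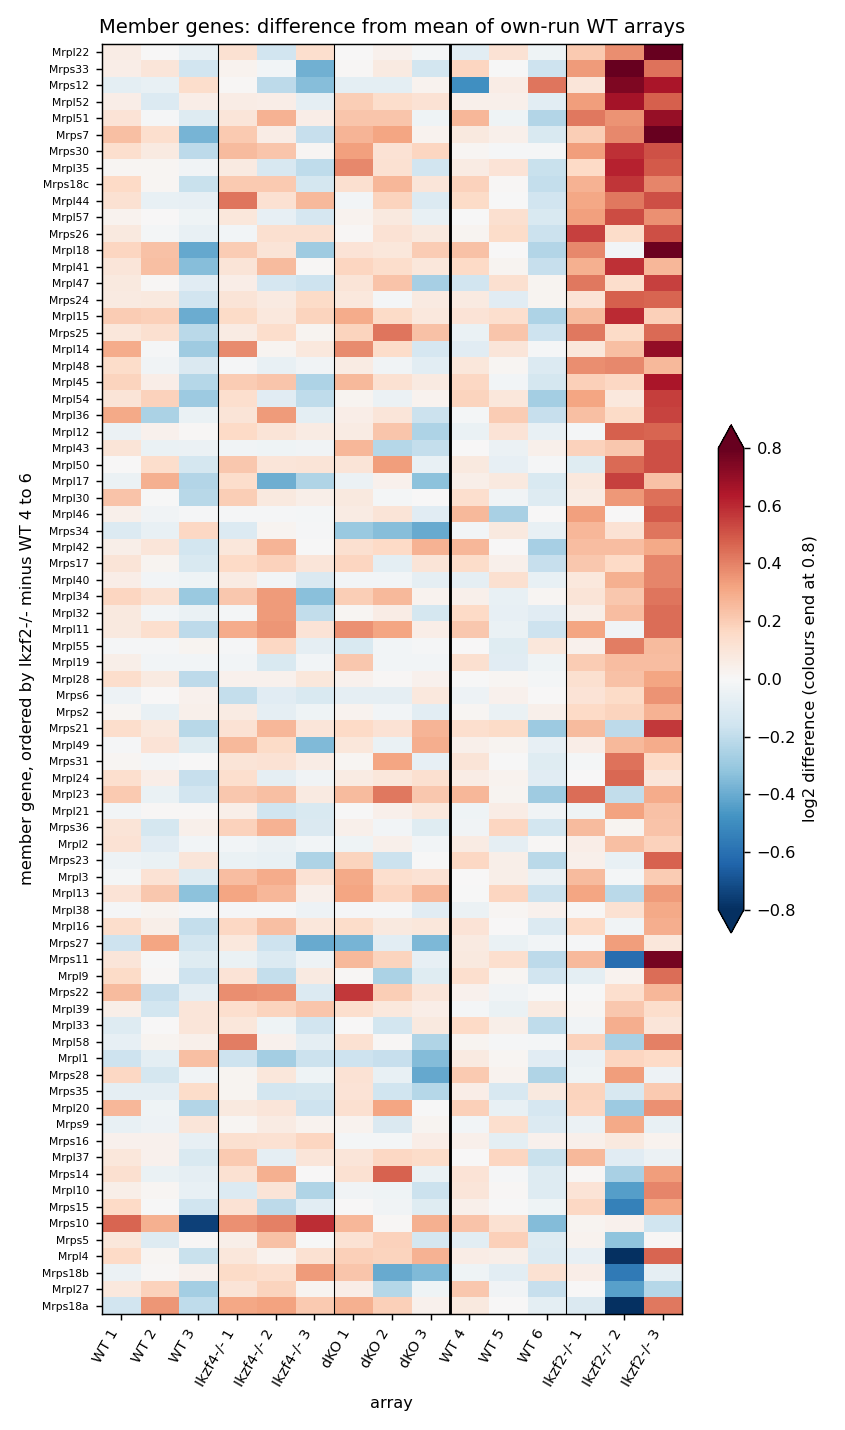
Log2 difference of each of the 77 members (vertical, ordered by the difference between Ikzf2-/- and WT 4 to 6) from the mean of the WT arrays of the same run, in each of 15 arrays (horizontal); red is higher, blue lower, and colours end at 0.8. Red prevails in the 3 Ikzf2-/- columns, and dark blue cells in Ikzf2-/- 2, such as Mrps18a and Mrpl4, set the bottom of the order.

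Markers of other cells and of division also differed between these groups. The mean log2 signal of 9 B cell genes was 5.61, 4.83 and 7.54 in Ikzf2-/- 1, 2 and 3. It lay between 4.99 and 5.20 in WT 4 to 6, so Ikzf2-/- 2 stood below WT and the others above. The 8 neutrophil genes lay between 5.81 and 8.95 against 4.88 and 5.45, without overlap. Of the 7 tested, 5 were higher and 0 lower at an unadjusted p under 0.05 (10.9% and 5.45% of all genes were). The 9 proliferation genes lay between 7.32 and 8.32 against 6.77 and 7.16, without overlap, and 6 of them were higher at an unadjusted p under 0.05 (10.9% of all genes were). In the B cell, neutrophil and proliferation lists alike Ikzf2-/- 3 was highest, the array with the highest member median of this run. The T cell and Treg list holds Ikzf2 itself; over its other 6 genes the mutant arrays 1, 2 and 3 averaged 10.47, 9.85 and 10.30, while WT 4 to 6 lay between 10.26 and 10.33, so Ikzf2-/- 2 alone lay below WT. Their part in the members' difference was not tested. Without Ikzf2-/- 3 and WT 1, the arrays with the most B cell signal in each run, the members stood 0.17 above all genes. Of them, 15 rather than 30 were higher at an unadjusted p under 0.05 (8.7% of all genes were). WT 1 enters this comparison only through the filter and the shared spread. Ikzf2-/- 1, which stayed in, also had more B cell signal (5.61) than WT 4 to 6. Ikzf2-/- 1 and 2, both kept, still stood above WT 4 to 6 in neutrophil signal (6.43 and 5.81) and proliferation signal (7.62 and 7.32). In bulk samples, fewer cells of a type and less RNA per cell cannot be told apart.

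In cells lacking Eos, the mitochondrial ribosomal genes stood close to WT 1 to 3. The median difference was 0.05 against 0.01 over all genes, and 50 of 77 were positive (64.9%, against 52.9%). None passed limma's adjusted threshold (0 of 77, beside 0% of all genes in either direction), and the lowest-p member had an adjusted p of 1. The shared estimate of spread includes the more variable Ikzf2-/- arrays. SEs and p for Ikzf4-/- and dKO cells may thus be too large, so few calls there are weak evidence of no change. At an unadjusted p under 0.05, 3 members were higher (3.9%, against 1.16% of all genes) and 0 lower (against 1.02%). These were Mrpl44 (0.27, SE 0.11), Mrpl3 (0.22, SE 0.09), which lies near the peptidyl transferase centre, and Mrpl39 (0.18, SE 0.08). Mrpl44 read 7.41, 7.11 and 7.24 in Ikzf4-/- 1, 2 and 3 against 7.11, 6.93 and 6.92 in WT 1, 2 and 3, so that the groups met at 7.11. Mrps10 had the largest difference (0.45, SE 0.24), set by WT 3, which read 5.31 where WT 1 and WT 2 read 6.52 and 6.34. Without WT 3 it was 0.08. Among negative differences, Mrpl1, a protein of the stalk through which spent tRNA leaves, stood at -0.20 and Mrps6 at -0.13, the latter without overlap. Arrays did not overlap in 5 members that were higher (6.49%, against 3.62%) and 1 that was lower (1.3%, against 2.92%). The members' distance of 0.05 from the median of all genes was 0.01 without WT 3 and 0.10 without WT 1, the array with B cell signal in that run (6.60, against 4.44 and 4.42 in WT 2 and WT 3).

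In dKO cells set against the same WT arrays, the median difference was 0.04 beside 0.00 over all genes, with 49 of 77 positive (63.6%, against 51.8%). None of 77 passed the adjusted threshold, beside 0.0274% of all genes higher and 0.0365% lower. The 2 comparisons with WT 1 to 3 share those arrays, so their likeness is no independent result. At an unadjusted p under 0.05, 1 member was higher (1.3%, against 2.39%) and 2 were lower (2.6%, against 1.99%). Mrps34, a mitochondria-specific protein needed for a stable small subunit, read 7.60, 7.56 and 7.50 in dKO 1, 2 and 3 against 7.79, 7.84 and 8.07 in WT 1, 2 and 3. Its arrays did not overlap, and the difference was -0.35 (SE 0.10, 0.786-fold, limma adjusted p = 0.668). Mrps25 stood higher by 0.28 (SE 0.12) without overlap, and Mrpl1 lower by a log2 difference of -0.23 (SE 0.11) with overlap, both at an adjusted p of 1. Mrpl1 was also the lowest-p negative member in Ikzf4-/- cells, where WT 3 at 7.32 stood above WT 1 and WT 2, the lower of them at 6.92; without WT 3 the dKO difference was -0.11. Other members with positive differences were Mrpl23 (0.30), Mrps22 (0.29) and Mrps30 (0.21). Arrays did not overlap in 6 members that were higher (7.79%, against 5.34%) and 2 that were lower (2.6%, against 4.22%). The members' distance of 0.04 from the median of all genes was 0.01 without WT 3 and 0.09 without WT 1. All 9 proliferation genes were positive (median 0.41) and all 9 B cell genes negative (median -0.77). In both lists, 0 genes passed an unadjusted p of 0.05. The part of either list in the members' values was not tested.

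The loss of Helios on the Eos-deficient background was read from dKO against Ikzf4-/- cells, arrays of the same run. Ikzf2 itself read 10.11, 10.16 and 10.59 in dKO 1, 2 and 3 against 10.49, 10.71 and 10.81 in Ikzf4-/- 1, 2 and 3, which overlap, a difference of -0.38 (SE 0.20, adjusted p = 1) beside -0.86 in Ikzf2-/- cells. The members had a median difference of 0.00, as did all genes, and 39 of 77 were positive (50.6%, against 49.3%). None passed the adjusted threshold (all genes 0.0182% higher and 0.00912% lower). At an unadjusted p under 0.05, 0 members were higher (against 1.79%) and 3 were lower (3.9%, against 1.69%). Mrps34 differed by -0.31 (SE 0.10, adjusted p = 0.988), with Ikzf4-/- arrays at 7.79, 7.92 and 7.89 above all dKO arrays. Mrps18b differed by -0.39 (SE 0.17), reading 7.53, 6.91 and 6.95 in dKO 1, 2 and 3, and Mrpl44 by -0.25 (SE 0.11). Arrays did not overlap in 4 members that were higher (5.19%, against 4.09%) and 4 that were lower (5.19%, against 4.19%). Mrps25 (0.20) and Mrpl52 (0.14) were higher in every dKO array than in any Ikzf4-/- array, at unadjusted p = 0.122 and 0.155. The mean of the 9 proliferation genes was 7.32, 8.23 and 7.92 in dKO 1, 2 and 3 and 6.97, 7.65 and 7.12 in Ikzf4-/- 1, 2 and 3, which overlap, and 4 of the 9 were higher at an unadjusted p under 0.05 (against 1.79% of all genes). Their part in the members' values was not tested. B cell genes stood between 4.33 and 4.47 in all 6 arrays. The 8 neutrophil genes averaged 5.04, 4.97 and 5.65 in dKO 1, 2 and 3, above 4.95, 4.25 and 4.87 in Ikzf4-/- 1, 2 and 3. All 7 tested neutrophil genes were positive, with 0 past an unadjusted p of 0.05. The part of such cells in the members' values was not tested either.

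**Figure D4:**
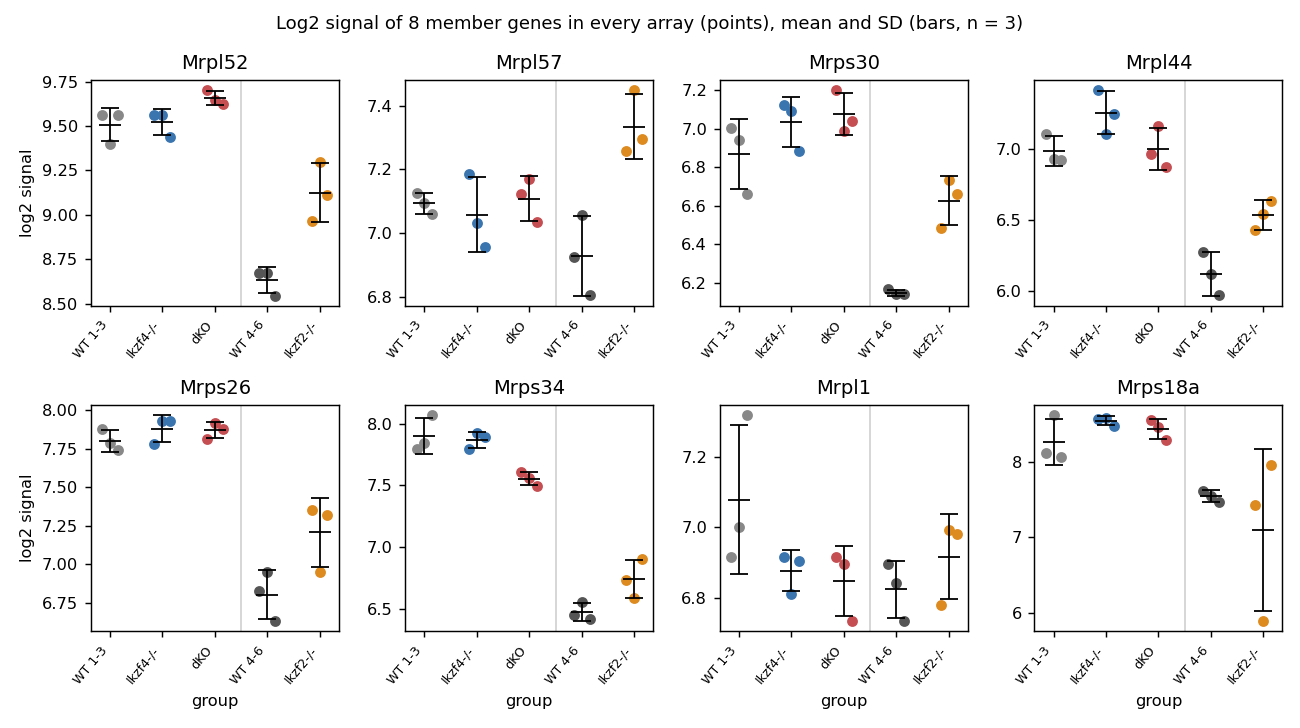
Log2 signal (vertical) of 8 members in every array (points) by group (horizontal), with the mean and SD of 3 arrays as bars; the vertical line parts the runs and each panel has its own scale. Mrpl52, Mrpl57, Mrps30, Mrpl44 and Mrps26 stood higher in Ikzf2-/- than in WT 4 to 6, Mrps34 stood lower in dKO than in WT 1 to 3 and Ikzf4-/-, and Ikzf2-/- 2 (5.89) set the Mrps18a mean.

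Both effects of losing Helios were then set against each other in the same fit, as the dKO minus Ikzf4-/- difference less the Ikzf2-/- minus WT 4 to 6 difference. Its median was -0.23 over the members and -0.02 over all genes. No member passed the adjusted threshold (0 of 77, and 0% of all genes in either direction). At an unadjusted p under 0.05, 13 members were lower (16.9%, against 4.49% of all genes) and 0 higher (against 1.81%). Mrpl44 (-0.67, SE 0.16) and Mrps34 (-0.58, SE 0.14) had the lowest p of the members, both at an adjusted p of 0.760. Both were among the genes with higher signal in Ikzf2-/- cells and lower signal in dKO than in Ikzf4-/- cells. The comparison with Ikzf2-/- lies in another run, so that run and background cannot be told apart. The drop of the Ikzf2 signal itself also differed in size (-0.38 and -0.86). Over the 77 genes, 37 were positive in both differences, 33 positive in Ikzf2-/- and negative in dKO, 2 the reverse and 5 negative in both. Taken singly, 70 were positive in the Ikzf2-/- difference and 39 in the dKO one, which largely sets these counts. They were not made for all genes and show neither likeness nor reversal between backgrounds. The differences correlated at Pearson r = 0.351 over members and 0.305 over all tested genes, a description across genes, which share arrays and are not replicates.

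**Figure D5:**
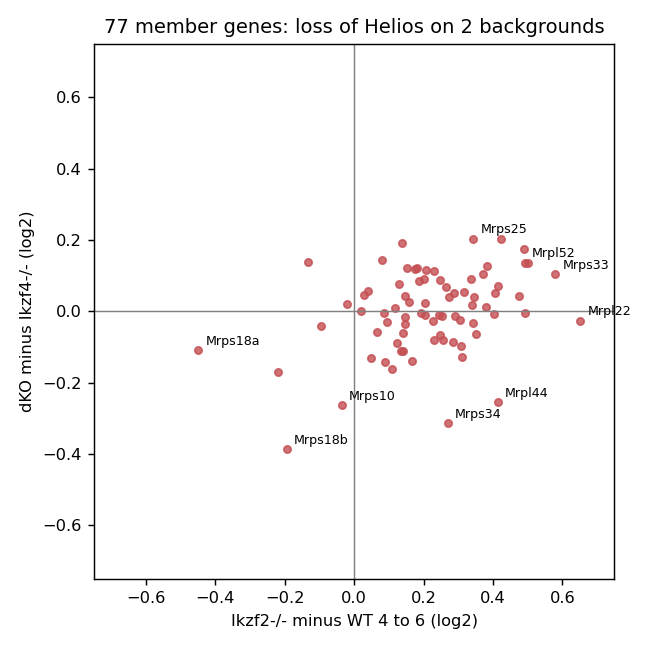
For each of the 77 members, the log2 difference between Ikzf2-/- and WT 4 to 6 (horizontal) against that between dKO and Ikzf4-/- (vertical), which share no array. Points lie mostly right of 0 and on both sides of 0 vertically; Mrpl44 and Mrps34 stand at the lower right.

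Genes that work with the mitochondrial ribosome were counted beside it, from lists chosen by function. In Ikzf2-/- against WT 4 to 6, none of their genes passed the adjusted threshold. Counts below are at an unadjusted p under 0.05, which 10.9% of all tested genes passed as higher and 5.45% as lower. Of 4 mitochondrial ribosomal proteins with other symbols, 3 were positive, with a median of 0.22, and Chchd1 (0.39) was higher at an unadjusted p of 0.0154. The 23 assembly factors had a median of 0.04, with 4 higher and 1 lower. Malsu1 was higher by 0.29, and the RNA helicase Ddx28 by 0.83, of which 0.45 was left without Ikzf2-/- 2 (7.55, against 6.47 and 6.33 in the other mutant arrays). The 14 translation factors and related proteins had a median of 0.11 and 3 higher, Slirp (0.68), Taco1 (0.41) and Gfm1 (0.33), an elongation factor. The 16 mitochondrial tRNA synthetases had a median of 0.04 and 2 higher, Cars2 (0.43) and Yars2 (0.41). The 9 genes of mitochondrial transcription and the nucleoid had a median of 0.11 and 0 past that p. Of 11 regulators of mitochondrial biogenesis, Ppargc1b (0.30) and Myc (0.31) were higher and Esrra (-0.24) lower at that p, with a median of 0.10. The 54 tested cytosolic ribosomal protein genes had a median of -0.01, with 5 higher and 2 lower; Rplp0 (0.38), Rpsa (0.27) and Rpl14 (0.45) had the lowest p. Thus the medians of the assembly factors, the tRNA synthetases and the cytosolic ribosome stayed within 0.03 of that of all genes (0.02). That of the mitochondrial ribosome was 0.21 above it. The 4 ribosomal proteins with other symbols (0.22), translation factors (0.11), transcription and nucleoid genes (0.11) and regulators (0.10) also lay above it. These differences between lists were not tested. The lists also differ in signal: in WT 4 to 6 the cytosolic ribosomal genes averaged 11.56, and the members' median was 7.19. Whether a like change would show equally at both levels was not tested. In the 3 other comparisons the medians of these lists lay between -0.06 and 0.07.

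Within groups, the 77 genes varied together only in part. Over the 15 arrays, as deviations from group means, the median correlation between pairs of members was 0.24, from -0.81 to 0.95, and 40 of 77 correlated above 0.5 with the mean of the others. Mrpl45 (0.938) and Mrps7 (0.929) followed the mean of the others most closely, and Mrps9 (-0.34) least. The 3 Ikzf2-/- arrays held 45.3% of the members' squared deviations, the largest share of any group. This was not particular to members: the median SD over all tested genes was 0.19 in Ikzf2-/- and 0.09 to 0.11 in the other groups. The correlations were not computed for other genes, so they are not shown to be a trait of the members. Members with and without each sequence feature overlapped widely in Ikzf2-/- cells. Genes with the ETS letters ranged from -0.45 to 0.65, as all members did. Their median difference was 0.25 against 0.23 in genes without, those with NRF1 letters 0.29 against 0.20, and those with a shared start region 0.28 against 0.20. The 20 genes with the Ikaros core TGGGAA had a median of 0.17 against 0.25 in the 48 without it, and in dKO against Ikzf4-/- cells these medians were 0.03 and -0.01. These splits were not tested.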

How the data were processed

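RNA of sorted splenic CD4+CD25+ cells was amplified and hybridised to 15 Affymetrix whole-transcript mouse arrays, per the labels' protocols. Per the submitters' processing notes, the authors made the deposited log2 values by RMA in Affymetrix Expression Console 1.3.1; RMA compresses changes of dim genes. No scanner files were used here, and no genome build was named for the array. Of 35556 probe sets, 21789 had 1 gene symbol, 1621 several, and 12146 were not listed. Genes entered the test where the mean of at least 1 group exceeded log2 4.96, the median of all probe set means. All 15 arrays entered a fit of 5 group means in limma 3.58.1 (R 4.3.3, lmFit and eBayes, 10 residual degrees of freedom), with Benjamini-Hochberg adjustment over 10964 genes at 0.05; precision is limited by the number of arrays. The code was tested on simulated data. The division of the WT arrays into runs was inferred from the label numbers and checked in the values.

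The members, lists and comparisons were chosen with earlier results of these data known. Named genes were members past the adjusted threshold, up to 6 in each direction with the lowest p per comparison, the 4 brightest and 4 dimmest, 15 members fixed by function, and up to 3 genes per companion list; exceptions are stated. Alternatives were scaling, filters, arrays in the fit, array weights, probe set choice, pooled WT, a replicate block and leaving out arrays. Equally numbered arrays were checked for shared deviations from their group means. Over all tested genes, correlations were 0.138, 0.217 and 0.303 for WT with Ikzf4-/-, and 0.428, 0.196 and 0.267 for Ikzf4-/- with dKO. WT with dKO gave 0.0708, 0.0450 and 0.173. Over the members these were -0.0731, -0.0889 and 0.131, then 0.0404, 0.0916 and 0.107, then 0.0702, -0.0482 and -0.110. Numbers may thus pair some arrays over all genes, while the members showed little of it. Motif searches used Python 3.11 and RefSeq start regions.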

Additional observations from a re-analysis of the deposited data

How the results depend on the processing

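For Ikzf2-/- against WT 4 to 6, the members' median stayed above that of all genes under every alternative run, at 0.0911 (log2) with all 6 WT arrays pooled and 0.14 to 0.214 otherwise, and from 0.159 to 0.260 on leaving out single arrays. Counts of members were less steady. Of members past the adjusted threshold there were 1 under a stricter filter (Mrpl52, 0.0494; 0.457% of all genes called) and 1 with array weights (Mrps26, 0.0291; 0.584%), and 0 to 8 on leaving out single arrays: 8 without Ikzf2-/- 1 (3.72%), 2 without Ikzf2-/- 2 (1.54%). Those higher at an unadjusted p under 0.05 numbered 16 with only the groups compared fitted (6.33% of all genes), 19 with array weights (11.2%), 2 with pooled WT (2.74%), 15 without both B cell arrays (8.7%), and 15 (without Ikzf2-/- 3, 8.87%) to 38 (without Ikzf2-/- 2, 18.1%) on leaving out single arrays. Those higher in every array numbered 26 to 44 on leaving out single arrays (44 without Ikzf2-/- 2, 26.7%). By its definition this count can only stay or rise when an array is left out, so 26 is no check. In the other 3 comparisons, and for the difference of both Helios effects, 0 members passed under each alternative run. The difference of Mrps10 turned positive with equal array medians (0.0132), joint quantile normalization (0.0144) and without the B cell arrays (0.0262), and ranged from -0.210 to 0.0765 on leaving out arrays. Mrps18b turned to 0.0375 with array weights. Without single arrays Mrps18a ranged from -0.884 to 0.154, Mrpl4 from -0.431 to 0.201 and Mrps5 from -0.156 to 0.0181. Pooling WT across runs mixes run with genotype: Mrpl44 then stood at -0.0192 in Ikzf2-/-, and in Ikzf4-/- Mrps6 at 0.237, Mrps27 at 0.303, Mrpl17 at 0.0747 and Mrps12 at 0.253. In dKO, pooling gave a relative median of 0.137, with Mrps34 at 0.368, Mrps27 at 0.192, Mrps35 at 0.143 and Mrpl9 at 0.333. With the replicate number as a block in the 9 arrays of the first run, 0 members passed in each of the 3 comparisons (lowest adjusted p 0.339), so it changed no call. Taking only member probe sets among neighbours of the gene's own chromosome, chosen after seeing the data, gave a relative median of 0.188. There, 29 members were higher at an unadjusted p under 0.05, beside 30 members and 10.9% of all genes in the main fit. Other genes kept their probe sets in this setting, and Mrpl48 dropped out. Genes of like signal in place of all genes, also chosen afterwards, gave 0.175. The number of arrays, 3 a group, limits single-gene calls.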
